A study of Mus musculus with 4 samples.

Results

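Sca-1 (stem cell antigen-1, gene symbol Ly6a), the protein missing in the knockout mice of the study, was examined together with 3 of its relatives in the Ly6 family, namely Ly6d, Lynx1 and Cd59a. Ly6a was taken by a single probe set (1417185_at), which the platform annotation leaves unnamed and which was assigned to Ly6a by the rule that set the members, and the 3 relatives by every probe set that carries their symbol. This gave 5 probe sets for 4 genes, out of 12395 genes with a probe set of their own, and all 5 reached the median of all signals on at least 1 array. The RNA came from female nulliparous mice on a C57BL/6 background, either Sca-1 knockout (Sca-1 KO) or wild-type littermates, all kept on standard chow. Mammary gland was taken at 6 weeks from each genotype, and mammary tumors of each genotype had been induced with MP-DMBA, that is 15 mg of MP (Depo-Provera, a depot progestin) under the skin followed by 4 weekly gavage doses of 1 mg of DMBA, a carcinogenic hydrocarbon, in 0.1 ml of cottonseed oil. The age of the mice with tumors, and how the knockout allele was made, are not given in the sources used here. Each group was RNA pooled from 5 mice on 1 Affymetrix array.

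With 1 array per group there were no replicates and no test was possible, so every difference below is a difference between 2 arrays of pooled RNA. Differences are on the log2(signal + 27.3) scale, with the lower quartile of the 4 arrays' values as offset, and this scale understates differences of dim genes. A gene was compared where at least 1 of its 4 values reached the floor, the median of all values (a signal of 168), and "past 2-fold" means a log2 difference of at least 1 in size. As a gauge of measurement noise only, the standard deviation of a single probe set was estimated from pairs of probe sets of the same gene, over 2766 genes. It was 0.26 for the genotype difference in gland and 0.18 in tumor. For the tissue difference it was 0.51 (wild type) and 0.48 (knockout). Differences between mice are not covered by this gauge.

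The Ly6 family consists of small proteins built around a cysteine-rich domain with 3 finger-like loops, many of them held on the outer cell surface by a glycosylphosphatidylinositol (GPI) anchor. Many of the genes lie side by side on mouse chromosome 15, among them Ly6a, Ly6d and Lynx1, while Cd59a lies on chromosome 2. In the mouse, Sca-1 is best known as a marker of blood stem cells and is also found on endothelial cells, activated T cells and progenitor cells of several tissues, the mammary gland included. Ly6a is also known as a gene induced by interferon.

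The samples carried markers of the tissues named in their labels, with further tissues in the gland. Of 11 measured luminal epithelial genes 9 were above the floor, while Esr1 and Pgr were below it on every array. The summed signal of the 11 was 28222 in wild-type gland, 23288 in KO gland, 44610 in wild-type tumor and 49977 in KO tumor. No gene list held a measured gene at 0 on every array, so a lack of such genes says little about any list. Skeletal muscle markers (12 measured) summed to 62874 and 60279 in wild-type and KO gland and to 445 and 899 in the tumors. White adipocyte markers (9 measured) summed to 55623 and 52999 in the glands and to 6103 and 4683 in the tumors. The control probe sets of beta-actin gave a 3'/5' ratio of 2.35 in wild-type gland and between 1.23 and 1.61 on the other arrays.

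Ly6a itself was far lower in both samples labelled knockout. Its signal was 6371 in wild-type gland, 1031 in KO gland, 6611 in wild-type tumor and 182 in KO tumor. The wild-type arrays were therefore high and close to each other, the KO tumor was the lowest, and the KO gland lay between. The KO signal was 16.2% of the wild-type signal in the gland and 2.75% in the tumor. On the log2 scale the difference was -2.60 in the gland, 6.05-fold lower, and -4.99 in the tumor, 31.7-fold lower. Both KO signals were still above the floor. The part of the gene that was deleted and the place where the probe set hybridises are not given in the sources used here, so the probe set checks the labels only in so far as it lies inside or depends on the deleted part.

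**Figure D1:**
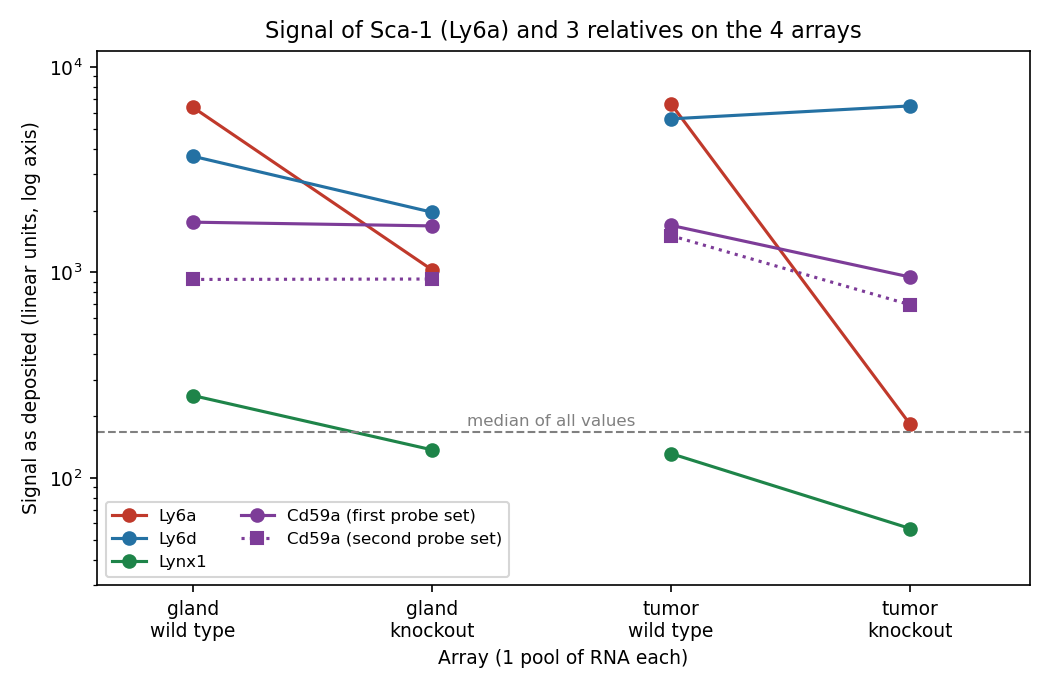
Signal as deposited (linear units on a log axis) for the 5 probe sets of Ly6a, Ly6d, Lynx1 and Cd59a on the 4 arrays, each array being 1 pool of RNA. Lines join the genotypes within a tissue, and the dashed line marks the median of all values. Ly6a goes from 6371 to 1031 in the gland and from 6611 to 182 in the tumor, while Ly6d in the tumor is 5594 and 6466.

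Few genes differed as much as Ly6a in either tissue. Among 8284 genes compared, 22 were lower past 2-fold in KO gland, which is 0.266%, and 92 were higher, which is 1.11%. In the tumor 162 were lower (1.96%) and 176 were higher (2.12%). In the gland, 80.7% of the genes past 2-fold were higher in knockout, but this share was 52.4% after the arrays were set to a common median and 65.3% with quantile normalization. Of the 5 probe sets, Ly6a was the only one lower past 2-fold in the gland, and in the tumor Ly6a and the second probe set of Cd59a were. None of the 5 was higher past 2-fold in either tissue.

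In the gland 9 genes had a larger decrease than Ly6a. They were Smr3a, Bpifa2, Chia1, Dnase1, Car6, Pip, Cst10 and Scgb2b27, secretory proteins of exocrine glands, and 2310057J18Rik. Their KO signals were between 1.4 and 27.0, against 1031 for Ly6a. In the tumor 1 gene had a larger decrease, the skin calmodulin Calm4, with signals of 2625 in wild type and 21.3 in knockout. Past 2-fold in both tissues, 2 genes of the 8284 were lower in knockout, Ly6a and the secretoglobin Scgb2b27. Scgb2b27 had signals of 219 and 7.3 in wild-type and KO gland and of 323 and 58.8 in wild-type and KO tumor.

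**Figure D2:**
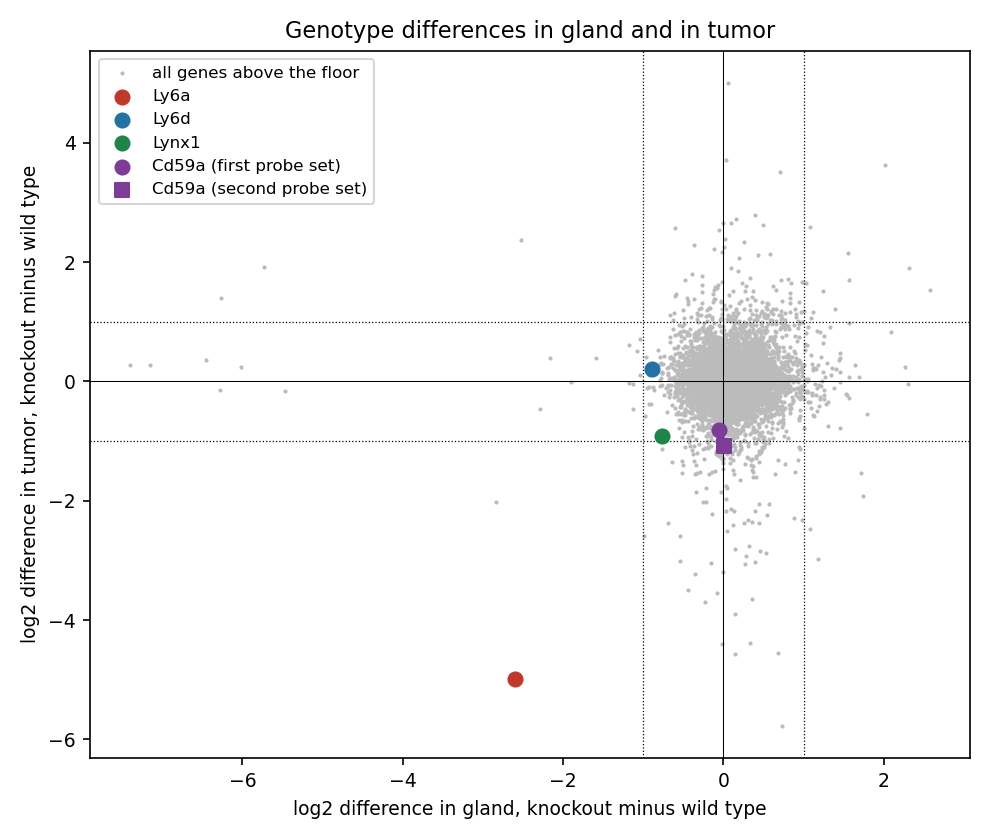
Log2 difference between genotypes (knockout minus wild type) in gland, on the horizontal axis, against that in tumor, on the vertical axis, for the 8284 genes above the floor (grey) and the 5 probe sets (coloured); dotted lines mark 2-fold. Ly6a lies at -2.60 and -4.99, apart from the other probe sets, which lie within 1 of zero in the gland.

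The genotype difference of Ly6a was larger in the tumor than in the gland, by -2.39 on the log2 scale, and 58 of the other genes (0.70%) had a larger difference of this kind in size. It arose between the KO arrays. Ly6a differed by 0.05 between tumor and gland in wild type, which quantile normalization turned to -0.18, and by -2.34 in knockout, where it was 5.05-fold lower in the tumor. The 4 comparisons share arrays pairwise, so these values restate the same 4 signals. For comparison, 1374 genes (16.6%) were lower and 1065 (12.9%) were higher past 2-fold in wild-type tumor than in wild-type gland. In knockout 1480 (17.9%) were lower and 1023 (12.3%) were higher. In knockout 40.9% of these were higher, which became 62.1% after the arrays were set to a common median. None of the 5 probe sets passed 2-fold between wild-type tumor and gland, and in knockout Ly6a was lower and Ly6d higher.

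Markers of endothelium and of T and NK cells, which are among the cells known to carry Sca-1, were set beside it, and their part in the values of Ly6a was not tested. All 13 endothelial markers were above the floor on at least 1 array and within 2-fold between genotypes in both tissues. Tek, Tie1, Robo4 and Flt1 were below the floor on both tumor arrays, where the scale understates differences. The summed signals of the 13 were 7608 and 8595 in wild-type and KO gland and 3533 and 2766 in wild-type and KO tumor. For T and NK cells the sums over 11 measured markers were 2389, 3772, 1019 and 1043 in the same order. Of 9 T and NK cell markers above the floor 1 was higher past 2-fold in KO gland, the coreceptor Cd8a with 130.1 in wild type and 361 in knockout. Cd8a, Cd8b1, Cd2, Cd5 and Cd3e reached the floor in KO gland alone, where they were high, which favors a higher gland value. The median of the 9 was 0.66 in gland and 0.15 in tumor. Over all 11 measured markers, without the floor, it was 0.66 and 0.10. In the tumors only Cd3d and Zap70 of the 9 reached the floor. Markers of blood stem cells and other progenitors were not examined. No marker of either list was at 0 on every array. In such bulk RNA, fewer cells of a type and less RNA per cell cannot be told apart.

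No gene followed the pattern of Ly6a closely over the 4 arrays. Likeness was measured as the sum of squared differences between log2 values centred on each gene's mean. This sum is not scaled to a gene's own spread, which is wide for Ly6a. The nearest genes were Ido1, Mmd2, Lor, Fez1 and Lce1i, with sums between 5.47 and 7.92. Each lay away from Ly6a by at least 1.67 on some array. Ido1, an enzyme that degrades tryptophan, had signals of 4018 and 3146 in wild-type and KO gland and of 2164 and 208 in wild-type and KO tumor. It shared the low KO tumor with Ly6a but differed by only -0.35 between the glands.

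Of the genes close to Ly6a on chromosome 15, few could be compared. Of the 10 protein-coding genes on each side of it in the RefSeq gene order, 6 had a probe set of their own, and the single one above the floor was Ly6d. The gene next to it, Ly6i, had signals of 73.8, 114, 42.0 and 119 in wild-type gland, KO gland, wild-type tumor and KO tumor. Ly6m, Ly6f, Ly6g2 and Cyp11b2, an enzyme of aldosterone synthesis, had no signal over 71.0. These 4, and Ly6i, lay below the floor on every array, and no difference is read from them. The neighbours Ly6c1 and Ly6c2 share a probe set, whose values are given with the wider family.

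Ly6d, a GPI-anchored protein known from keratinocytes and from early stages of the B cell lineage, differed between genotypes in the gland and much less in the tumor. Its signal was 3679 in wild-type gland, 1965 in KO gland, 5594 in wild-type tumor and 6466 in KO tumor. Both tumors were above both glands, and the KO gland was the lowest of the 4. Between genotypes the log2 difference was -0.90 in gland, 1.86-fold lower in knockout, and 0.21 in the tumor. The gland difference did not pass 2-fold, although after the arrays were set to a common median, which shifted the median of all genes to -0.21, it was -1.12. Taken from that median it was -0.91. In the gland 30 of 8283 other genes had a lower value, while in the tumor 47.89% had a larger difference in size.

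Between tissues Ly6d was 1.52-fold higher in the tumor of wild type (0.60 on the log2 scale) and 3.26-fold higher in the tumor of knockout mice (1.70). The genotype difference in tumor exceeded that in gland by 1.10, and 410 other genes (4.95%) had a larger difference of this kind in size.

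Several marker lists moved with genotype in the same samples, and their part in the values of Ly6d was not tested. In the gland, 9 of 10 B cell markers above the floor were higher past 2-fold in knockout, with summed signals over 11 measured genes of 3362 and 8765. Blk, Fcer2a and Cr2 among them reached the floor in KO gland alone. Of 11 markers of exocrine secretion, which were placed on a list with earlier results of these arrays known, 10 were lower past 2-fold in KO gland, with sums of 32335 and 3395. All of these 10 but Scgb2b27 and Dcpp3 reached the floor in wild-type gland alone. In the tumor, 10 of 15 markers of keratinising epithelium were lower past 2-fold in knockout and 1 was higher, with sums over 18 measured genes of 14304 and 4998. All of these 10 but Krt10 reached the floor in wild-type tumor alone, where they were high, which favors a lower call. Without the floor, the tumor median over the 18 measured genes was -2.76. In the gland none of the 15 was lower and 2 were higher in knockout, with sums of 1040 and 1336. The 2 were Krt6a, a keratin of stressed epidermis, with 63.8 and 289, and the crosslinking enzyme Tgm1 with 69.4 and 220. Tgm1 reached the floor in KO gland alone. Ly6d, at 5594 and 6466 in the tumors, was not among the genes lower in KO tumor. Of 9 luminal markers above the floor 1 was lower past 2-fold in KO gland and none in KO tumor, and of 10 basal and myoepithelial markers 2 were, both in KO tumor. Of 5 neutrophil markers above the floor 3 were higher in KO gland, among them Ngp, which reached the floor there alone, and 2 were lower in KO tumor. In KO tumor 3 of 12 skeletal muscle markers were higher, Acta1, Myh4 and Tnnc2. Myh4 (0.6 and 44.0 in the tumors) and Tnnc2 (3.3 and 66.7) reached the floor in the glands only, so their tumor differences are not read. No marker of these lists was at 0 on every array.

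**Figure D3:**
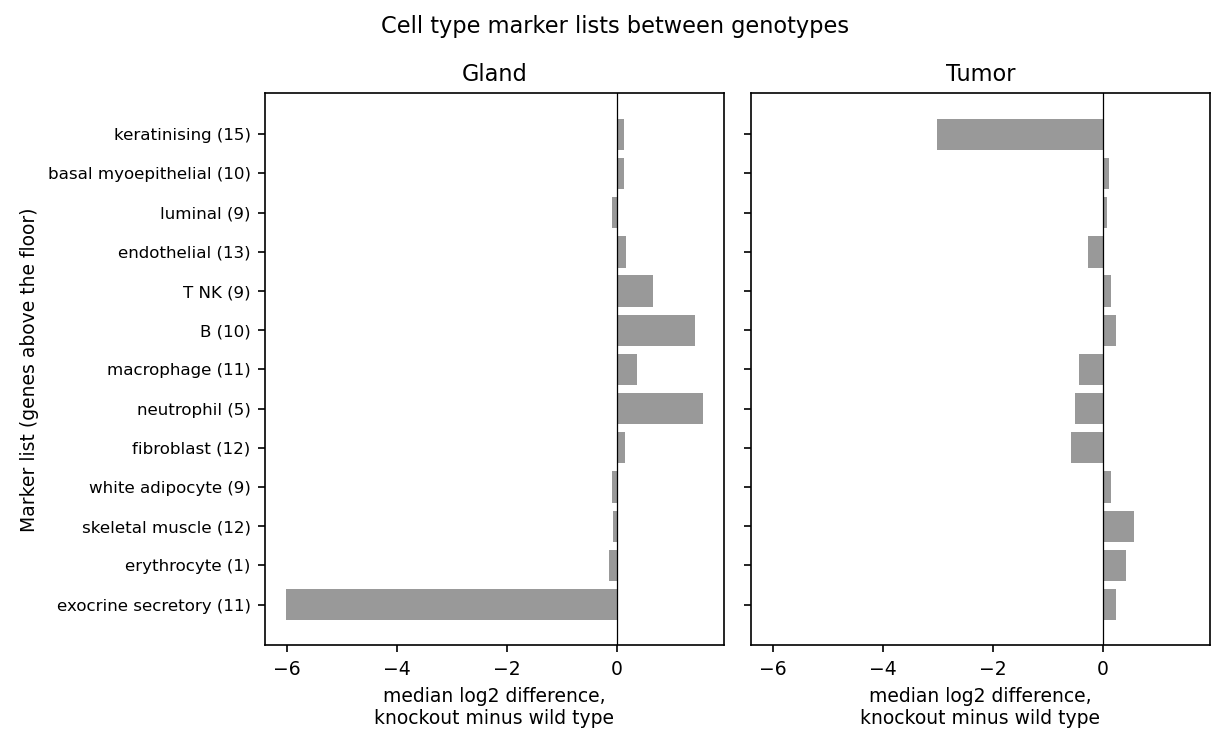
Median log2 difference between genotypes (knockout minus wild type) of 13 cell type marker lists in gland (left) and tumor (right), over the genes above the floor, whose number is in brackets. The exocrine secretory list lies lowest in the gland (-6.02) and the keratinising list lowest in the tumor (-3.02), while the B cell list is at 1.42 in the gland.

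The genes nearest to Ly6d in pattern were Afg3l1, Haus1, Tmem218, Mpzl2 and Prss8, with sums of squared differences between 0.022 and 0.074 over the 4 arrays. Afg3l1, the nearest, had signals of 188 and 98.7 in wild-type and KO gland and of 315 and 330.2 in wild-type and KO tumor. Prss8, a membrane-anchored serine protease of epithelia, had 265 and 174 in the glands and 504 and 597 in the tumors.

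Lynx1, a GPI-anchored modulator of nicotinic acetylcholine receptors, was the dimmest of the 4 genes relative to the floor. Its signal was 252 in wild-type gland, 137 in KO gland, 131 in wild-type tumor and 56.7 in KO tumor. Only the wild-type gland reached the floor of 168, so Lynx1 could be compared through that array alone, and both tumor signals lay below it. The KO array was the lower in each tissue, and the tumor array was the lower in each genotype. Between genotypes the log2 difference was -0.76 in gland, 1.70-fold lower, and -0.92 in the tumor, where it compares 2 signals below the floor. Between tissues it was -0.82 in wild type and -0.97 in knockout. Neither the tumor fold nor the place of Lynx1 among other genes is read.

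None of these values passed 2-fold, and in size they depended on the offset and the scaling. In the tumor the difference was -1.20 with an offset of 1 and -0.41 with an offset equal to the median of all values. In the gland it was -0.46 with that larger offset and -1.04 with quantile normalization. The sign stayed negative in both tissues with a common median and with quantile normalization. An offset alone cannot change a sign, so the other offsets say nothing about it. The probe set was annotated as Lynx1, whose RefSeq entry also carries the synonym SLURP-2. Slurp2 is listed as a separate gene next to Lynx1 in the RefSeq gene order. Whether its transcripts hybridise to this probe set was not examined.

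Subunits of nicotinic receptors, the receptors that Lynx1 modulates, were mostly too dim to compare. Of 16 listed genes 14 were measured and 1 was above the floor, Chrnb1, the beta subunit of the muscle receptor. Chrnb1 had signals of 248 and 223 in wild-type and KO gland and of 129 and 139 in the tumors, with genotype differences of -0.14 and 0.09. The genes nearest to Lynx1 in pattern were Ypel5, Dpyd, C920021L13Rik, Rab2b and Gpx8, with sums between 0.11 and 0.16. Dpyd, which breaks down pyrimidines, had 622 and 425 in wild-type and KO gland and 303 and 146 in wild-type and KO tumor.

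Cd59a, the GPI-anchored inhibitor of the membrane attack complex of complement, was alike between the glands and lower in KO tumor by both of its probe sets. By the first probe set (1418710_at) the signal was 1757 in wild-type gland, 1685 in KO gland, 1695 in wild-type tumor and 950.1 in KO tumor. Here 3 arrays were close together and the KO tumor was low. By the second (1429830_a_at) it was 925, 929, 1511 and 696 in the same order. The glands were again close together, but the wild-type tumor was the highest array.

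In the gland the genotype differences were -0.06 and 0.01 for the first and second probe set. The latter turned to -0.22 with a common median and to -0.02 with quantile normalization. The common median shifted the median of all genes to -0.21, and taken from that the second probe set was at -0.0055. In the tumor the genotype differences were -0.82, or 1.76-fold lower, and -1.09, or 2.13-fold lower. The values for the tumor differed between the probe sets by less than 2 times the noise gauge of 0.18, and the call past 2-fold rested on the second alone. With an offset equal to the median of all values, Ly6a alone of the 5 probe sets remained past 2-fold in the tumor. In the tumor 238 of 8283 other genes lay lower than the first probe set and 139 lower than the second. The difference in tumor exceeded that in gland by -0.76 and -1.10, and 12.0% and 5.05% of the other genes had a larger difference of this kind in size.

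The probe sets gave different values for the comparison of tissues, by less than 2 times the noise gauges of 0.51 (wild type) and 0.48 (knockout). In wild type the first gave -0.05 for tumor against gland, and the second gave 0.69, a 1.62-fold higher signal. With a common median the first turned to 0.07, against 0.10 over all genes. In knockout they gave -0.81 and -0.40. The suffix of the second probe set marks a set that can match more than 1 transcript of a gene.

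The genes around Cd59a on chromosome 2 showed no such difference. Of the 10 protein-coding genes on each side, 11 had a probe set of their own and 9 were above the floor. In the tumor all 9 were within 2-fold, from -0.38 for Cat, the catalase gene, to 0.49 for Elf5, a transcription factor of the milk-producing lineage, with a median of 0.19. In the gland they ranged from -0.24 to 0.55.

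Other regulators of complement mostly lay within 2-fold as well. Of 13 listed genes 11 were measured and 6 were above the floor. In the gland 1 was higher past 2-fold in knockout, the complement receptor Cr2, which is carried by B cells, with signals of 106 and 325. Cr2 reached the floor in KO gland alone, the array where it was high. The median of the 6 was 0.39 (gland) and -0.11 (tumor), against 0.01 in both tissues over all genes, and none was past 2-fold in the tumor. Vtn, vitronectin, which binds the attack complex in plasma, had 190 and 353 in wild-type and KO gland and 108 and 42.6 in the tumors. Clu, clusterin, had 2021 and 2783 in the glands and 7490 and 6718 in the tumors. Of the terminal components of complement, 6 were measured and 1 was above the floor, Hc (C5), with 393 and 397 in the glands and 35.0 and 54.2 in the tumors. C8a, C8b, C8g and C9 were below the floor on every array. Among 9 early components above the floor 1 passed 2-fold between genotypes, Masp1, a protease of the lectin pathway, at 133 and 301 in wild-type and KO tumor. Masp1 reached the floor in KO tumor alone. These 9 had medians of 0.42 (gland) and -0.20 (tumor).

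Fibroblast and macrophage markers had medians below 0 in KO tumor, though most members lay within 2-fold, and their part in the values of Cd59a was not tested. Of 12 fibroblast markers above the floor 3 were lower and 2 higher past 2-fold, with a median of -0.58 and sums of 31715 in wild type and 28541 in knockout. Of 11 macrophage markers above the floor 1 was lower and none higher, with a median of -0.42 and sums over 12 measured genes of 35361 and 26705. C1qa, C1qb and C1qc are on this list and among the early complement components above, so those lists share values. The values of the keratinising list are given above. No marker of these lists was at 0 on every array.

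The genes nearest to Cd59a in pattern, by its first probe set, were Rab40b, Nrbp2, Tpm1, Acp5 and Zfp651. Their sums of squared differences were between 0.0054 and 0.018. Such sums depend on how much a member varies over the arrays, so they are not compared between members. Tpm1, a tropomyosin of the actin cytoskeleton, had signals of 4355 and 3846 in wild-type and KO gland and of 3756 and 2244 in wild-type and KO tumor.

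Of 42 listed Ly6 family genes 21 had a probe set of their own, and most of those beyond these 4 genes were near background in both tissues. Of the 17 that were not members, 16 did not reach the floor on any array. Their signals, with those of a probe set shared by Gml and Gml2, were between 0.3 and 144 with a median of 12.0. The exception was Plaur, the urokinase receptor, with signals of 163 and 179 in wild-type and KO gland and of 308 and 168 in wild-type and KO tumor. Its wild-type tumor was the highest array, and the genotype differences were 0.11 (gland) and -0.78 (tumor).

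A probe set shared by Ly6c1 and Ly6c2, surface proteins of monocytes, T cells and endothelium and close relatives of Sca-1, showed little difference between genotypes. Its signal was 4367 in wild-type gland, 4671 in KO gland, 1618 in wild-type tumor and 1752 in KO tumor. The genotype differences were 0.10 and 0.11, so where Ly6a was low in knockout this probe set was not. Between tissues it was 2.67-fold lower in the tumor of wild type and 2.64-fold lower in the tumor of knockout, whereas Ly6a differed by 0.05 in wild type. The 2 genes cannot be told apart by this probe set.

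Among the dim genes, some had larger differences in the tumor, all between signals below the floor. Psca, prostate stem cell antigen, had 4.7 in the wild-type and 90.0 in KO tumor and 3.9 and 11.8 in the glands. Ly6i had 42.0 and 119 in the tumors. Slurp1, a secreted family member made by keratinocytes, had 28.3 and 3.1 in the tumors and 9.5 and 12.0 in the glands. Lypd3, a surface protein of squamous epithelium, had 144 and 127 in the tumors and 53.0 and 61.7 in the glands. Pinlyp had 79.3 and 134 in the tumors and 1.2 and 3.9 in the glands, so both tumors were above both glands. Because the values lie near background, their folds depend on the offset and no order is read from them.

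**Figure D4:**
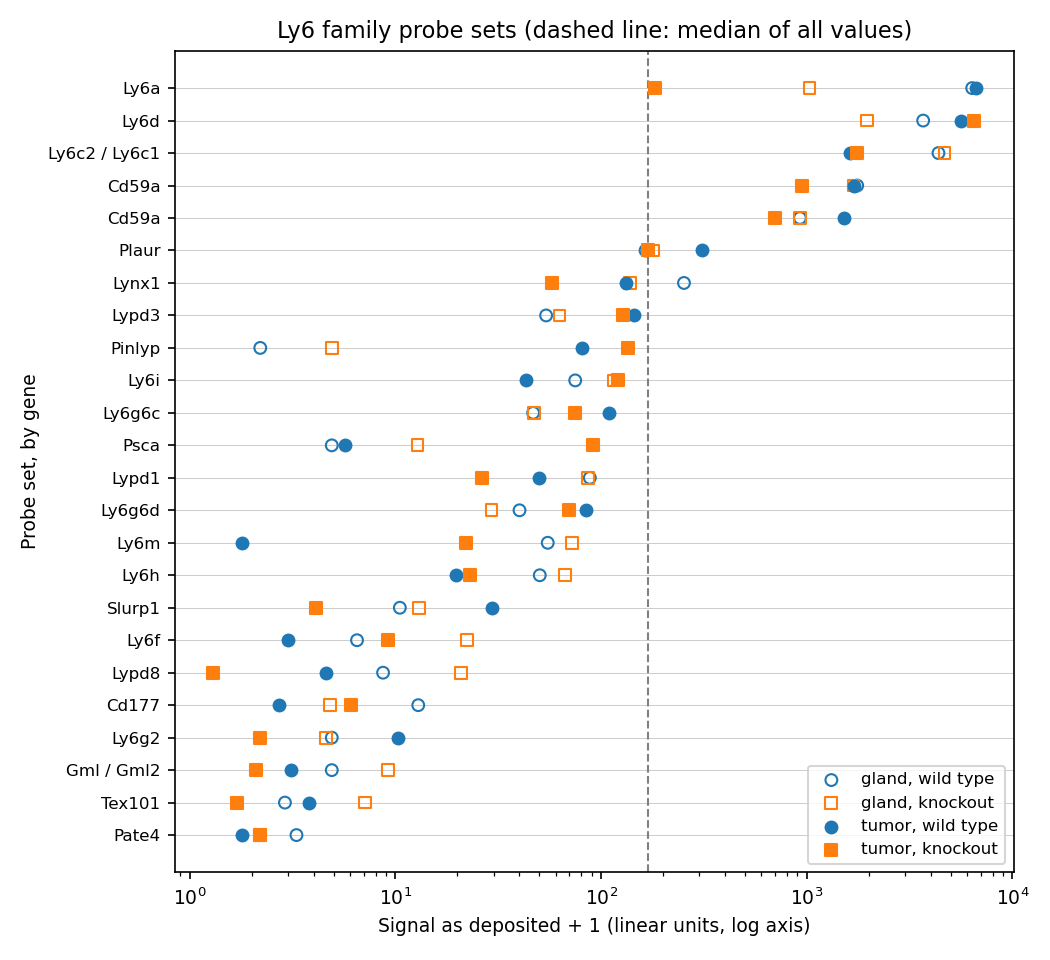
Signal as deposited plus 1 (linear units on a log axis) of 24 Ly6 family probe sets on the 4 arrays, ordered by their highest signal; circles are wild type, squares knockout, open symbols gland and filled symbols tumor. Ly6a is the probe set in which the KO arrays stand farthest below the wild-type arrays, and probe sets below Lynx1 do not reach the dashed line at 168.

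Genes that build and attach the GPI anchor, on which most of these proteins depend to stay on the surface, differed little between genotypes. Of 29 listed genes 20 were measured and 17 were above the floor, and all 17 were within 2-fold in both tissues. Their medians were -0.11 (gland) and -0.02 (tumor). The largest differences were -0.39 for Pigq in the gland, with signals of 2297 and 1752, and -0.54 for Pigk, part of the transamidase that attaches the anchor, in the tumor, with 514 and 344. Of 26 other GPI-anchored proteins 22 were above the floor and all were within 2-fold between genotypes. Their medians were 0.16 in the gland and -0.09 in the tumor. A common median turned the gland value to -0.07, against -0.21 over all genes. Alpl, tissue-nonspecific alkaline phosphatase, had 152 and 169 in the glands and 435 and 778 in the tumors. Cd109 had 12.6 and 41.1 in the glands and 176 and 87.3 in the tumors.

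Interferon response genes were compared because Ly6a is known to be induced by interferon. Of 30 listed genes 26 were measured and 24 were above the floor. All 24 were within 2-fold between genotypes, with medians of 0.08 in the gland and 0.19 in the tumor. A common median turned the gland value to -0.15, against -0.21 over all genes. Between tissues, 11 of the 24 were higher past 2-fold in the tumor of wild type and 11 in the tumor of knockout. Over all genes 12.9% and 12.3% were. None of the 24 was lower past 2-fold, though Stat2, Oas2 and Irf1 lay at -0.83, -0.62 and -0.19 in wild type. The medians were 0.97 and 0.94, against -0.03 and -0.04 over all genes. Cxcl10, a chemokine induced by interferon-gamma, had signals of 86.3 and 168 in wild-type and KO gland and of 428 and 854 in wild-type and KO tumor. Ly6a, at 6371 and 6611 in wild-type gland and tumor, did not differ past 2-fold between these tissues, nor did the rest of the 24.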

How the data were processed

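Total RNA, pooled from 5 mice per group, was labelled with biotin and measured on Affymetrix arrays, per the labels' protocols. The deposited table holds an intensity per probe set and array on a linear scale (22690 probe sets, 4 arrays), and the software and settings that made them are not given in the sources used here. On each deposited array the mean without the lowest and highest 2% of values was 500.0, so arrays had been scaled alike. Median signals were 167, 199, 151 and 153 in the wild-type gland, knockout gland, wild-type tumor and knockout tumor. The number of arrays limits the precision.

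Symbols came from the platform annotation. Of the probe sets, 20393 had 1 symbol (20364 updated to current RefSeq symbols of GRCm38.p6 by gene identifier), 691 had several and 1606 were not listed. Probe sets with several symbols were left out, except where named as shared. The probe set of Ly6a was assigned by the rule that set the members. For each other gene the probe set of highest mean log2 value was used, and for the members every probe set is given. The noise gauge is the median absolute difference between the brightest 2 probe sets of a gene, scaled to the standard deviation of a single probe set under a normal distribution. Gene order on chromosomes came from RefSeq.

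The members and the 21 gene lists were chosen with earlier results of these data known. Genes named are the members, the measured Ly6 family, up to 4 genes of each other list with the largest genotype differences, the 5 genes nearest in pattern, and genes of lists set beside a member. The genes below Ly6a in either tissue, Scgb2b27, and the genes next to members on their chromosomes were chosen after their values were seen. Alternatives were other offsets, scalings, floors and probe set choices. The procedure was tested on simulated data. Python 3.11.15, NumPy 2.4.6 and pandas 2.3.3 were used.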

Additional observations from a re-analysis of the deposited data

How the results depend on the processing

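Each group was 1 array, so none was left out, and no paired analysis was possible because the result comes from no test. Under other offsets and scalings 83 of 96 member values and counts stayed within the noise gauge or within 1.5 times the count, and 13 moved. The sign turned in 4 of 80 values, for Cd59a and Ly6a differences under 0.1 in size. All 4 turned with a common median or quantile normalization. Values under other offsets are among the 80 but could not turn, because an offset alone cannot change a sign. With an offset of 1 the tumor genotype difference was -5.17 for Ly6a and -1.20 for Lynx1, and 3 member probe sets in place of 2 were past 2-fold between the tumors and between the knockout tissues. With the median of all values as offset it was -4.27 and -0.41, Lynx1 was -0.46 in the gland, the tissue difference in knockout was -1.78 for Ly6a and -0.44 for Lynx1, and 1 member probe set was past 2-fold in the tumor in place of 2. With quantile normalization Ly6a was -4.78 in the tumor, and Lynx1 was -1.04 between the glands and -0.47 between the knockout tissues. Past 2-fold in the gland were 2 member probe sets both with quantile normalization (Ly6a and Lynx1) and with a common median (Ly6a and Ly6d), in place of 1. These shifts follow from the offset or scaling itself. The genes past 2-fold between the glands numbered 92 higher and 22 lower, but 181 and 41 with an offset of 1, 20 and 17 with the median as offset, 44 and 40 with a common median, 66 and 35 with quantile normalization, 147 and 35 without a floor, 43 and 9 with the floor on the mean, and 76 and 12 without probe sets that may cross-hybridise. Between the tumors the 176 higher and 162 lower became 281 and 223 with an offset of 1, 62 and 78 with the median as offset, and 107 and 99 with the floor on the mean. Between tissues the counts moved by over 1.5 times with the median as offset (wild type 671 higher and 813 lower, knockout 662 and 909), and in knockout also with a common median (1696 higher) and without a floor (2287 lower). The Ly6 family median, -0.76 in the gland and -0.82 in the tumor over 5 genes above the floor, was 0.09 and -0.15 over all 21 measured.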
